A study of Mus musculus with 28 samples.

Results

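The 9 genes described here, Adh1, Adh4, Aldh1a1, Aldh1a2, Rdh7, Rdh16, Rbp4, Dhrs3 and Rarb, handle retinoids, the family of vitamin A and its derivatives. They were chosen by symbol, with earlier results of these data known, and all 9 were found among the 18182 genes of the deposited expression table. Expression had been measured by RNA sequencing in 14 hepatocellular carcinomas and in the peritumour tissue of the same 14 mice. All mice carried c-Myc and Alb-cre transgenes, so tumour and peritumour tissue share that genotype, and Alb-cre directs Cre recombinase to hepatocytes through the albumin promoter. The titles sort them into 11 tumour libraries of group Tu_F with 11 peritumour libraries of Pe_F, and 3 of Tu_M with 3 of Pe_M; what F and M stand for is not spelled out in the labels. Age and treatment were not stated in these labels, and no liver without the transgenes was used here, so "peritumour" below is transgenic tissue and not normal liver. A sample code shared in the titles was taken to mark the 2 libraries of 1 animal, and an animal is called below by its letter and replicate number.

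Retinol reaches tissues bound to Rbp4, which hepatocytes secrete, and most of the body's vitamin A is stored in hepatic stellate cells as retinyl esters. Inside cells, alcohol dehydrogenases and short-chain retinol dehydrogenases oxidise retinol to retinaldehyde, and Dhrs3 carries out the reverse reaction. Retinaldehyde dehydrogenases then oxidise retinaldehyde irreversibly to retinoic acid, the ligand of nuclear receptors such as Rarb. Rarb is itself a textbook target of retinoic acid, through a pair of direct repeats spaced by 5 bases in 1 of its promoters.

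Libraries held 14777567 to 17576921 estimated counts, and levels are given as counts per 1e6 of these (CPM). Myc ranged from 274 to 659 CPM in tumours (median 437) and from 185 to 650 CPM in peritumour tissue (median 340). The sources used here do not say how far transgene reads count toward Myc. The 7 hepatocyte markers found summed to 23704 to 56947 CPM in tumours and 25832 to 66509 CPM in peritumour tissue, so both tissues carried the transcripts of liver parenchyma. A few libraries stood apart. The tumour of F replicate 2 held 1981 CPM of 6 cholangiocyte markers, against at most 307.8 CPM in any other library, and the blood cell precursor markers reached 1661 CPM in tumours and 1279 CPM in peritumour tissue. The sample codes come in 2 styles, treated as a possible batch: 6 pairs (F replicates 1 to 3 and all M) have the first style and 8 pairs the second.

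In levels per transcript length, deposited as TPM, where transcripts are scaled to length and to a fixed sum, the 9 genes differed widely. The median order in tumours was Rbp4 (3328 TPM), Adh1 (2374), Rdh7 (444), Aldh1a1 (325), Dhrs3 (143), Adh4 (67.4), Rdh16 (10.4), Rarb (1.41) and Aldh1a2 (0.47 TPM). In peritumour tissue it was Rbp4 (3419 TPM), Adh1 (2769), Aldh1a1 (591), Rdh7 (501), Dhrs3 (187), Adh4 (109), Rdh16 (13.7), Rarb (2.79) and Aldh1a2 (0.55 TPM). Aldh1a1 and Rdh7 therefore changed places: Rdh7 was above Aldh1a1 in 11 of 14 tumours, whereas Aldh1a1 was above Rdh7 in 8 of 14 peritumour libraries. Every pair of neighbours in either order overlapped in range over the 14 libraries. Even so, Rbp4 exceeded Adh1 within each of the 14 tumours and each of the 14 peritumour libraries.

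The series design sets tissue inside the tumour against the tissue around it. Taken within animals, 4 of the 9 genes fell in tumours and none rose: the retinaldehyde dehydrogenase Aldh1a1, the alcohol dehydrogenase Adh4, the retinaldehyde reductase Dhrs3 and the receptor Rarb. In the same fit, with the animal as a block, 5.91% of the 14117 genes tested were called lower and 5.59% higher (edgeR quasi-likelihood test, Benjamini-Hochberg adjusted p under 0.05). Without the block none of the 9 passed, where 0.241% of genes were called lower and 0.808% higher. In that fit 2672 of the 14117 genes tested, lower or higher, had an unadjusted p under 0.05 (edgeR). Among them were 2 of the 9, Aldh1a1 and Rarb, both lower. The median log2 fold change of the 9 genes was -0.39 with the block, against -0.02 over all genes tested, and -0.29 without it, against 0.01. Because the 9 were chosen with earlier results of these data known, these values over all genes are background and do not test an excess. In the bulk tissue measured here, fewer cells of a type and less RNA per cell cannot be told apart.

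**Figure D1:**
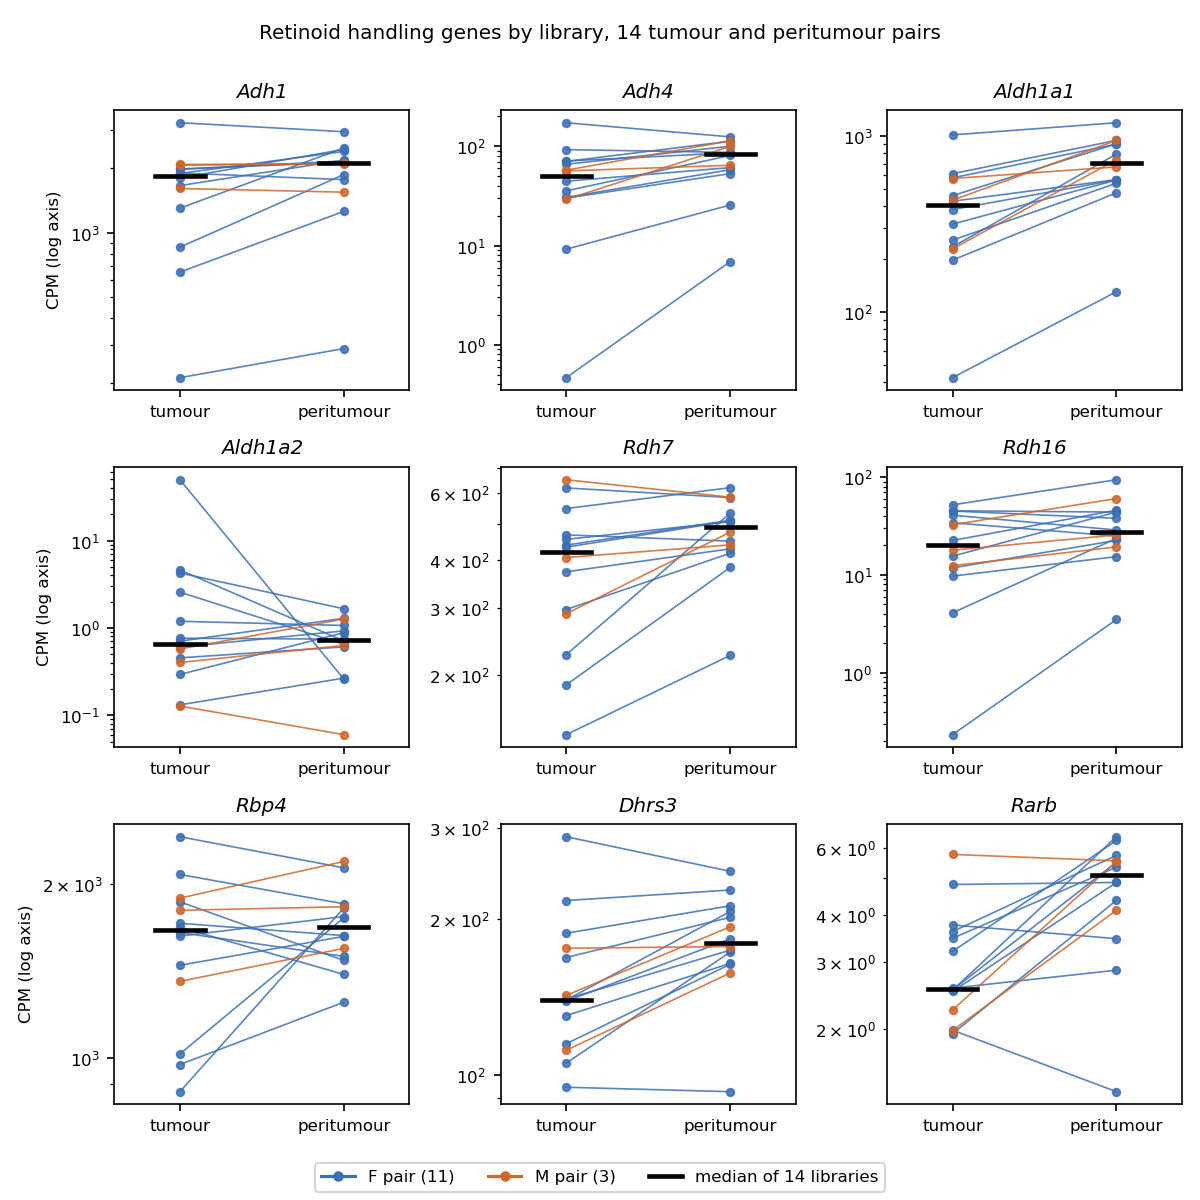
CPM of each gene (log axis, scale set per panel) in tumour and peritumour libraries, with a line joining the 2 libraries of an animal, blue for 11 F pairs and orange for 3 M pairs, and a black bar at the median of 14 libraries. Aldh1a1 slopes down toward the tumour in all 14 pairs, and the tumour of F replicate 2 stands apart for Aldh1a2 at 49.5 CPM.

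**Figure D2:**
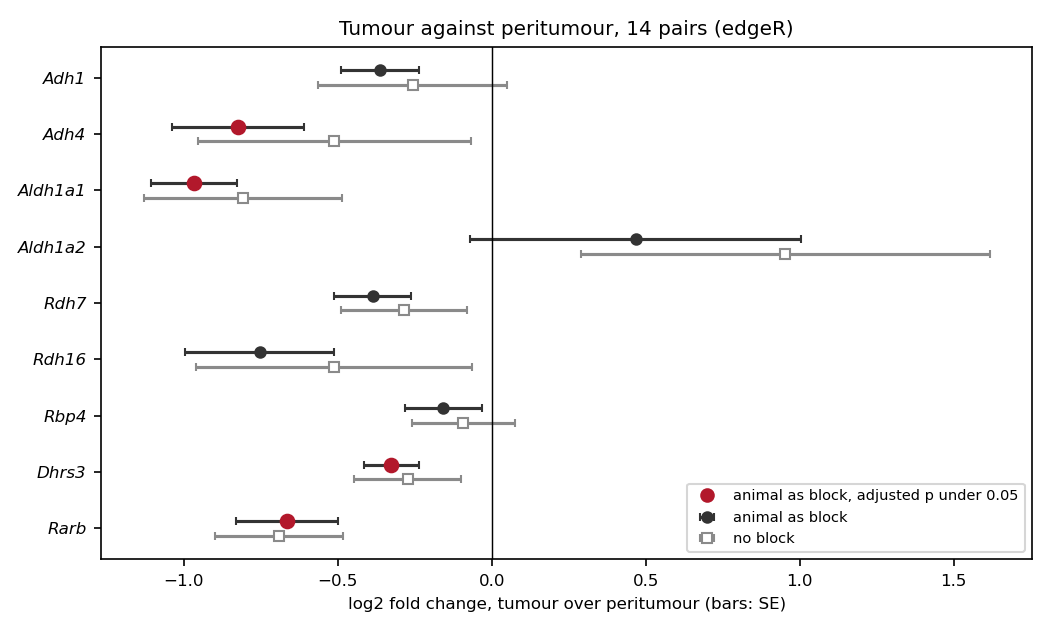
Log2 fold change of tumour over peritumour for the 9 genes, with SE bars, in the fit with the animal as a block (filled circles) and without it (open squares). Red marks Adh4, Aldh1a1, Dhrs3 and Rarb, which passed with the block, and Aldh1a2 alone lies right of 0.

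Rbp4, the plasma carrier of retinol, ranged from 873 to 2416 CPM in tumours (median 1666) and from 1248 to 2189 CPM in peritumour tissue (median 1688). The ranges overlapped and the tumour was lower in 8 of 14 pairs. Its log2 fold change was -0.16 ± 0.12 (SE) with the block (adjusted p = 0.427, edgeR) and -0.09 ± 0.17 without it (adjusted p = 0.798, edgeR). The pair of F replicate 2 differed most, by -1.46 on the log2 scale, and its tumour held the lowest Rbp4 of all 28 libraries. Rbp4 lies on chromosome 19 at 38116620 to 38125321 (GRCm38, minus strand).

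Adh1, the class I alcohol dehydrogenase that clears ethanol and oxidises retinol, ranged from 212 to 3249 CPM in tumours (median 1843) and from 289 to 2952 CPM in peritumour tissue (median 2111). The groups overlapped over almost their whole range, and the tumour was lower in 10 of 14 pairs. It did not pass in either fit, with log2 fold changes of -0.36 ± 0.13 (adjusted p = 0.0737, edgeR) with the block and -0.26 ± 0.31 (adjusted p = 0.675, edgeR) without it. The mean difference rested in part on F replicate 2 (-1.52 on the log2 scale) and F replicate 6, and without the F pairs 2, 5 and 6 it was -0.19 ± 0.10. Those 3 pairs have the peritumour libraries with the most blood cell precursor transcripts (887 to 1279 CPM), whereas the pair of F replicate 4, whose tumour holds 1661 CPM, was kept. In the 3 M pairs Adh1 had means of 1915 ± 268 CPM in tumours against 1912 ± 319 CPM in peritumour libraries (SD, 3 per tissue).

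Adh4, the class II alcohol dehydrogenase, a neighbour of Adh1 on chromosome 3 (138415497 to 138430892, against 138277645 to 138290691 for Adh1, both on the plus strand), fell in tumours. It ranged from 0.466 to 173 CPM in tumours (median 50.6) and from 6.88 to 125 CPM in peritumour tissue (median 83.5). The tumour was lower in 12 of 14 pairs, all but F replicates 4 and 11, although the groups overlapped because animals differed widely. A difference in the same direction in at least 12 of 14 pairs was seen for 6.81% of genes. The log2 fold change was -0.82 ± 0.22 with the block (adjusted p = 0.0229, edgeR), a 1.77-fold lower level, and -0.51 ± 0.44 without it (adjusted p = 0.55, edgeR). With the block it was -0.90 ± 0.22 in the first code style and -0.75 ± 0.32 in the second, and it passed with any 1 pair left out (adjusted p up to 0.0487, edgeR). Without F pairs 2, 5 and 6 it was -0.58 ± 0.18 (adjusted p = 0.0437, edgeR).

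Rdh7 and Rdh16, microsomal short-chain dehydrogenases that act on retinol and on hydroxysteroids, lie near each other on chromosome 10 (127884027 to 127889247 on the minus strand, and 127801090 to 127815839 on the plus strand). Rdh7 ranged from 139 to 652 CPM in tumours (median 420) and from 225 to 621 CPM in peritumour tissue (median 490). Rdh16 ranged from 0.233 to 52.0 CPM in tumours (median 20.2) and from 3.51 to 94.0 CPM in peritumour tissue (median 27.2). Both genes overlapped between tissues. Rdh7 was lower in 11 of 14 tumours (log2 fold change -0.39 ± 0.13, adjusted p = 0.0549) and Rdh16 in 10 of 14 (-0.75 ± 0.24, adjusted p = 0.0517), each just short of the threshold in the fit with the block (edgeR). Without the block they were at -0.29 ± 0.20 and -0.51 ± 0.45 (adjusted p = 0.458 and 0.553, edgeR). DESeq2 with the block called 7 of the 9 genes lower, adding Rdh7, Rdh16 and Adh1, in a fit that called 8.27% of genes lower.

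These 2 genes belong to a cluster of close copies, so how reads were split among the copies is uncertain. By alignment of transcripts, Rdh16 matched Rdh9 at 94.1% identity over 58.9% of its length and Rdh16f1 at 94.3% over 57.7%, and Rdh7 matched Rdh1 at 87.4% over 58.0%. Rdh9 and Rdh16f2, another member of that cluster, were themselves lower in tumours with the block, at -0.78 ± 0.19 (adjusted p = 0.0162, edgeR) and -1.16 ± 0.28 (adjusted p = 0.0165, edgeR). Both passed with any 1 pair left out.

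Dhrs3, which reduces retinaldehyde back to retinol and is itself induced by retinoic acid, fell in tumours by a small amount. It ranged from 94.6 to 288 CPM in tumours (median 140) and from 92.8 to 247 CPM in peritumour tissue (median 180). The groups overlapped, and the tumour was lower in 12 of 14 pairs. Its log2 fold change was -0.33 ± 0.09 with the block (adjusted p = 0.0268, edgeR), a 1.25-fold lower level, and -0.27 ± 0.17 without it (adjusted p = 0.4, edgeR). This call was the least stable of the 4: it was lost when the pair of F replicate 6, 7, 8, 9 or 10 or of M replicate 2 or 3 was left out (adjusted p up to 0.0708, edgeR), and was at adjusted p = 0.0537 without F pairs 2, 5 and 6 (edgeR). Dhrs3 lies on chromosome 4 at 144892608 to 144927645 (plus strand).

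Aldh1a1, a cytosolic retinaldehyde dehydrogenase abundant in hepatocytes, fell in tumours with the smallest adjusted p of the 9. It ranged from 42.2 to 1020 CPM in tumours (median 405) and from 130 to 1196 CPM in peritumour tissue (median 703), and had means of 412 ± 240 CPM in tumours against 711 ± 266 CPM in peritumour libraries (SD, 14 per tissue). The groups overlapped between animals, yet the tumour was the lower library in 14 of 14 pairs, as it was for 0.751% of all genes. The log2 fold change was -0.97 ± 0.14 with the block (adjusted p = 0.00105, edgeR), a 1.96-fold lower level, and -0.81 ± 0.32 without it (adjusted p = 0.173, edgeR).

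Single pairs differed by -0.20 (M replicate 1) to -1.83 (F replicate 7) on the log2 scale. With the block the log2 fold change of Aldh1a1 was -0.97 ± 0.21 in the first code style (adjusted p = 0.483, edgeR; no gene passed in that style, while 1199 genes had an unadjusted p under 0.05) and -0.96 ± 0.17 in the second (adjusted p = 0.0141, edgeR). It stayed between -1.02 and -0.90 with any 1 pair left out and was -0.82 ± 0.15 without F pairs 2, 5 and 6 (adjusted p = 0.00659, edgeR). Aldh1a1 lies on chromosome 19 at 20492174 to 20643462 (plus strand). Its transcript matched that of Aldh1a7, a related dehydrogenase, at 89.0% identity over 85.6% of its length, so some reads may be shared. Aldh1a7 itself was at -0.35 ± 0.14 (adjusted p = 0.102, edgeR, with the block).

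Markers of pericentral hepatocytes, the liver cells around the central vein, were also lower in tumours. The 10 pericentral markers summed to 354 to 2123 CPM in tumours and 560 to 3635 CPM in peritumour tissue, and their mean log2 level was lower in 14 of 14 tumours (mean difference -0.89). The 8 periportal markers were lower in 9 of 14 tumours (mean difference -0.28), and the 7 hepatocyte markers in 7 of 14 (mean difference -0.10). Over the 14 pairs the pericentral markers correlated with Aldh1a1 at r = 0.63 and rho = 0.72 (adjusted p = 0.099 and 0.07, permutation test), and with Adh4 and Dhrs3 at r = 0.33 and 0.38 (adjusted p = 0.38 and 0.34). With the periportal markers Aldh1a1 gave r = 0.58 and rho = 0.49 (adjusted p = 0.15 and 0.25, permutation test), and Adh4 and Dhrs3 gave r = 0.65 and 0.72. Without F replicate 7 and M replicate 2, r for Aldh1a1 was 0.37 with the pericentral and 0.77 with the periportal markers. The part of these cells in the levels of the 3 genes was not tested.

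Aldh1a2, the retinaldehyde dehydrogenase that makes most of the embryo's retinoic acid and in adult liver is typical of mesothelial and mesenchymal cells, was the exception. It was barely detected in most libraries, at 0.128 to 49.5 CPM in tumours (median 0.656) and 0.0602 to 1.66 CPM in peritumour tissue (median 0.727). The tumour of F replicate 2 held 49.5 CPM, the tumours of F replicates 3, 6 and 5 held 4.61, 4.26 and 2.57 CPM, and each of the other 10 tumours lay within the range of the peritumour libraries. The log2 fold change was 0.47 ± 0.54 with the block (adjusted p = 0.602, edgeR) and 0.95 ± 0.66 without it (adjusted p = 0.444, edgeR). The tumour was nevertheless the lower library in 8 of 14 pairs, with a median difference of -0.15 on the log2 scale. Without F pairs 2, 5 and 6 the log2 fold change was -0.22 ± 0.34 with the block, and without code style and letter in the unpaired fit it was 2.24 ± 0.70 (adjusted p = 0.0874, edgeR). Aldh1a2 lies on chromosome 9 at 71215789 to 71296243 (plus strand).

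Bile duct transcripts were high in some of the libraries with the most Aldh1a2. The tumour of F replicate 2 held 799 CPM of Krt19, 256 CPM of Krt7 and 126 CPM of Epcam, epithelial genes of the bile duct, and the tumour of F replicate 3 held the most cholangiocyte marker transcripts of the other 13 tumours (269.8 CPM). The tumour of F replicate 6, with 4.26 CPM of Aldh1a2, held 109.9 CPM of these markers. That was below the peritumour median of 123.6 CPM but above the 58.19 CPM of its own peritumour library. The tumour of F replicate 5 held 190.3 CPM of them, against 34.99 CPM in its own peritumour library. The peritumour library of M replicate 2 held 307.8 CPM of them with 1.27 CPM of Aldh1a2. Of the mesothelial markers, that tumour of F replicate 2 held 11.9 CPM of Msln but 0.321 CPM of Wt1, and its mesothelial sum of 816.5 CPM was mostly Krt19, which both lists contain. Over the 14 pairs, the difference in Aldh1a2 and that in the cholangiocyte markers correlated with r = 0.88 (permutation test, adjusted p = 0.0088) and rho = 0.65 (adjusted p = 0.12), and r was 0.78 without F replicates 2 and 3. With the dendritic cell markers r was 0.73 and rho 0.60, and r was 0.72 without the same pairs. With the stellate cell markers r was 0.46 and rho 0.60, and with the mesothelial markers 0.53 and 0.31. Relations with these 3 lists did not pass (adjusted p from 0.061 to 0.45, permutation test). The part of bile duct, mesothelial or other cells in these levels was not tested.

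**Figure D3:**
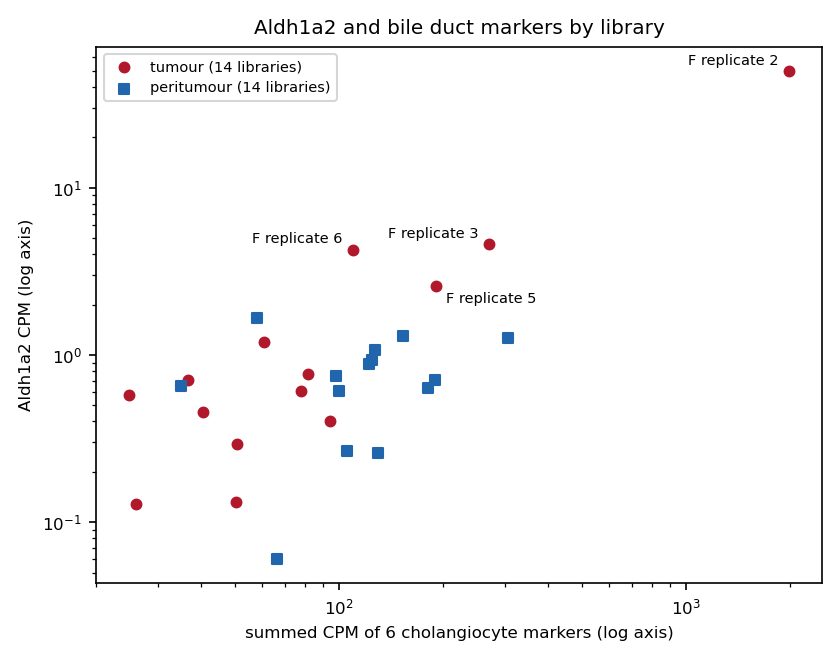
Aldh1a2 CPM against the summed CPM of 6 cholangiocyte markers in each library (both axes log), with circles for 14 tumours and squares for 14 peritumour libraries. The tumour of F replicate 2 lies alone at 1981 CPM of markers and 49.5 CPM of Aldh1a2, and the other 3 labelled tumours are those above the peritumour range of Aldh1a2.

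Rarb, the beta receptor for retinoic acid, fell in tumours. It is shown with its promoter because its own transcription is a known readout of retinoic acid. The 250 bases before the start listed for it in the RefSeq promoter table, a start that lies inside the span RefSeq gives for the whole gene (GRCm38.p6, chr14:16575477-16575726, minus strand, written 5′ to 3′ on the gene's strand) hold the DR5 retinoic acid response element, given in capitals:
Rarb: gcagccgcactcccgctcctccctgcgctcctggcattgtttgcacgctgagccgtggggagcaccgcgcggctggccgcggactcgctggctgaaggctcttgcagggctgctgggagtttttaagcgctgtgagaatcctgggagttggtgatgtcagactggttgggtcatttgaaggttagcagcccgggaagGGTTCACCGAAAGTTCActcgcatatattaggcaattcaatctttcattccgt
The element ends 36 bases before that start. The search, on both strands, was for a pattern that allows alternative bases within each repeat and any 5 bases between them. Matches can therefore differ in sequence. A match was found in windows of 28 of 26994 genes (0.104%) and in Rarb alone among the 9. Of 63 genes of a wider retinoid list with a window, only Cyp26a1 had a match, on the strand opposite to the gene (chr19:37697558-37697807, plus strand), as this stretch of its gene strand shows in capitals:
Cyp26a1: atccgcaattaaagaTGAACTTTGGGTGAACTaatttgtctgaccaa
These matches are letters in a window, and binding was not measured.

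Rarb ranged from 1.94 to 5.78 CPM in tumours (median 2.55) and from 1.36 to 6.43 CPM in peritumour tissue (median 5.11). The groups overlapped, and the tumour was lower in 11 of 14 pairs, with F replicates 4 and 5 and M replicate 1 going the other way. The log2 fold change was -0.67 ± 0.17 with the block (adjusted p = 0.0192, edgeR), a 1.59-fold lower level, and -0.69 ± 0.21 without it (adjusted p = 0.0812, edgeR). DESeq2 called it also without the block (adjusted p = 0.03; 1.35% of genes lower in that fit), as did edgeR without the pair of F replicate 5 (adjusted p = 0.0355). With the block Rarb was at -0.73 ± 0.25 in the first code style and -0.61 ± 0.24 in the second, neither of which passed alone.

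Rarb had at most 106 counts in a library, so counting error weighs more on it than on the abundant enzymes. The deposited table gives Rarb as chromosome 14, 15962517 to 17172930, on the plus strand with 12 transcripts, of which 4 are RefSeq coding transcripts, whereas RefSeq places the gene at 16430839 to 17082331 on the minus strand. What was counted beyond the RefSeq gene is not known, nor whether reads were assigned by strand, so antisense transcripts cannot be told apart from Rarb.

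Markers of stellate cells, where Rarb is also expressed, were lower as well. The 9 stellate markers summed to 138 to 425 CPM in tumours and 203 to 708 CPM in peritumour tissue. Their mean log2 level was lower in 13 of 14 tumours, with F replicate 5 the exception. That was also the pair where Rarb was highest in tumour relative to peritumour (0.47 on the log2 scale). In the pairs of F replicate 4 and M replicate 1, Rarb was higher in the tumour too (0.14 and 0.07). Their stellate sums were lower there (249.9 against 359.1 and 423.5 against 579.2 CPM). By summed CPM the stellate markers were higher also in the tumour of F replicate 2 (364.7 against 344.4 CPM). Over the 14 pairs Rarb and the stellate markers correlated with r = 0.61 and rho = 0.56 (permutation test, adjusted p = 0.1 and 0.19), and r was 0.43 without F replicates 5 and 4. Sinusoidal endothelial markers (mean log2 difference -0.47, lower in 11 of 14 pairs), Kupffer cell markers (-0.72, 11 of 14) and dendritic cell markers (-0.28, 11 of 14) were also lower in most tumours. Rarb correlated about as closely with the dendritic markers (r = 0.59, rho = 0.60, adjusted p = 0.13 and 0.16, permutation test). With the pericentral, Kupffer and sinusoidal markers r was 0.52, 0.46 and 0.34. Without F replicates 5 and 4, r was 0.32 for the dendritic, 0.62 for the pericentral, 0.66 for the Kupffer and 0.42 for the sinusoidal markers. The part of these cells in the level of Rarb was not tested.

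Animals also differed widely in several of the 9 genes. The pair of F replicate 5 was low in both tissues: its tumour held 212 CPM of Adh1, 0.466 CPM of Adh4, 42.2 CPM of Aldh1a1 and 0.233 CPM of Rdh16, and its peritumour library held 289, 6.88, 130 and 3.51 CPM of the same genes. These were the 2 lowest libraries of all 28 for each of these 4 genes. Its peritumour library was the lowest of 14 for 8 of the 9 genes, all but Aldh1a2. The highest tumour exceeded the lowest by 371-fold for Adh4, by 223-fold for Rdh16 and by 24.2-fold for Aldh1a1, but by 2.77-fold for Rbp4. The first 3 of these rest on the tumour of F replicate 5, without which they were 18.8-fold, 12.7-fold and 5.17-fold.

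**Figure D4:**
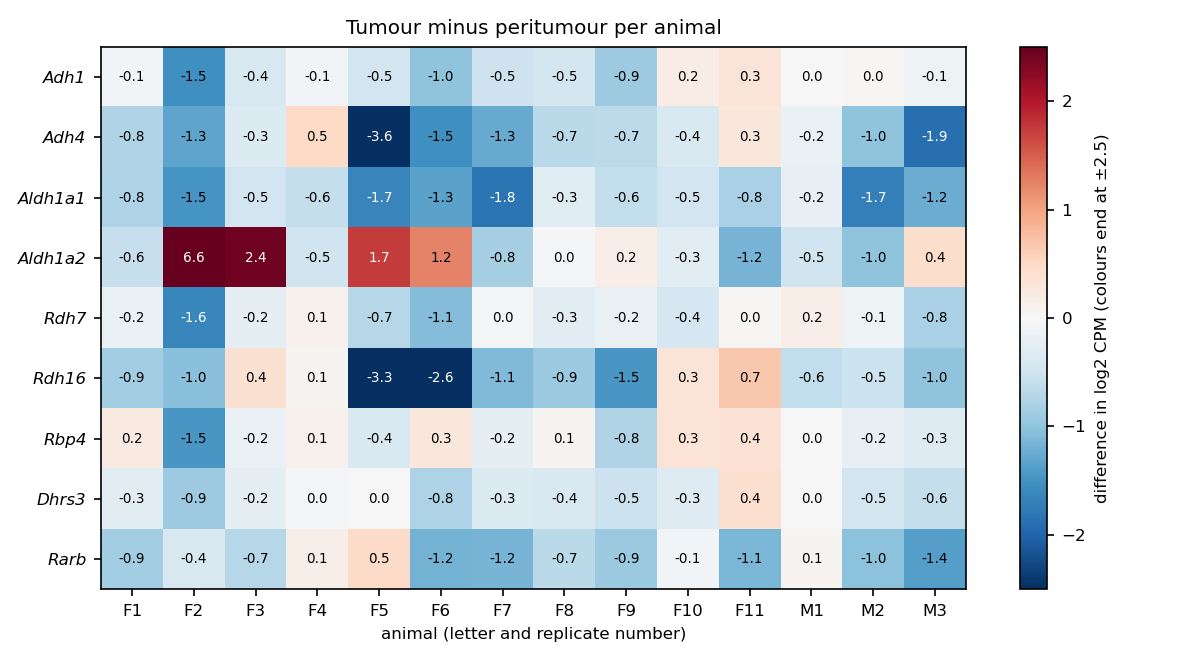
Tumour minus peritumour difference in log2 CPM for the 9 genes (rows) in each of 14 animals (columns), blue where the tumour is lower and red where it is higher, with colours ending at ±2.5. Aldh1a1 is blue in all 14 columns, Adh4 is darkest in F replicate 5 and Rdh16 in F replicates 5 and 6, and Aldh1a2 is reddest in F replicate 2.

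How the 9 genes varied together was asked over the 14 pair differences, in 36 relations. By Pearson's r, 9 of the 36 passed a permutation test (adjusted over the 36), and 2 of these passed also by Spearman's rho. Adh4 and Rdh16 moved together (r = 0.85, adjusted p = 0.0076, and rho = 0.78, adjusted p = 0.019), with r = 0.64 in the first and 0.90 in the second code style and 0.72 without F replicates 5 and 4. Aldh1a2 and Rdh7 moved in opposite directions (r = -0.83, adjusted p = 0.02, and rho = -0.78, adjusted p = 0.019), with r = -0.85 and -0.86 in the first and second code styles and -0.83 without F replicates 2 and 3. Aldh1a2 had at most 25 counts in a peritumour library (F replicate 6), so counting error weighs on its pair differences in this and its other relations. Adh4 and Aldh1a1 (r = 0.68, adjusted p = 0.02, permutation test) kept r = 0.69 without F replicates 5 and 4, whereas the relation of Adh1 and Rdh7 (r = 0.72, adjusted p = 0.02) rested on F replicates 2 and 6, without which r was 0.21. Without these 2 pairs, Adh1 with Aldh1a2 went from r = -0.78 to -0.47 and Adh1 with Dhrs3 from 0.73 to 0.47. Rdh7 with Dhrs3 went from 0.71 to 0.41, and Adh1 with Rbp4 from 0.73 to 0.81. Aldh1a2 with Rbp4 went from -0.75 to -0.28 without F replicates 2 and 3. How often relations among other genes pass was not tested.

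Rarb stood outside this pattern: none of its 8 relations with the other genes passed, and r ran from -0.10 with Rdh16 to 0.34 with Dhrs3. The last of these was 0.84 without F replicates 11 and 2. Among the 90 relations with marker lists, Rdh7 and the periportal markers gave r = 0.92 (adjusted p = 0.0025, permutation test, over all 126 relations) and rho = 0.81 (adjusted p = 0.039), with r = 0.77 without F replicates 2 and 6. By r the periportal markers also passed with Aldh1a2 (-0.85, adjusted p = 0.014, permutation test), Adh1 (0.81, adjusted p = 0.02) and Dhrs3 (0.72, adjusted p = 0.043), with r = -0.78, 0.49 and 0.48 once the 2 pairs farthest from the median were left out. With Adh4 they passed by rho (0.85, adjusted p = 0.039, permutation test) and not by r (0.65, adjusted p = 0.094). The relation of Aldh1a1 with the pericentral markers, which did not pass, fell to r = 0.37 without F replicate 7 and M replicate 2.

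Among 9129 genes with a mean of at least 10 CPM, those most like each of the 9 in their pair differences were, by Pearson's r over 14 pairs, Pemt for Adh1 (0.94), Mettl7b for Adh4 (0.86) and for Rdh16 (0.91), and Serpina3k for Aldh1a1 (0.89). For Aldh1a2 it was the tropomyosin Tpm1 (0.96), for Rdh7 Mtch2 (0.94), with the oxysterol receptor Nr1h3 also among the first 3 (0.94), and for Rbp4 the apolipoprotein Apoa2 (0.94). Dhrs3 was most like Nfil3 (0.94) and Aldh2 (0.93). Rarb had the weakest likeness, to Steap4 (0.83) and Apcs (0.81). These values were picked as the highest of many and describe these pairs only.

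The rest of the pathway was read from a list of 85 genes sorted by role, of which 83 were in the table and 69 had enough counts to be tested. With the animal as a block 10 of the 69 fell in tumours and 4 rose (edgeR), against the 5.91% lower and 5.59% higher of all genes. Without the block Lrat alone passed. The median log2 fold change of the 69 was -0.14 with the block. This list too was chosen with earlier results of these data known, so the shares do not test an excess.

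Of 8 tested genes for storage and release of retinyl esters, 1 fell: Lrat, the enzyme that esterifies retinol in stellate cells. Lrat ranged from 3.53 to 14.01 CPM in tumours (median 6.71) and from 6.99 to 23.5 CPM in peritumour tissue (median 16.4), and the tumour was lower in 14 of 14 pairs. Its log2 fold change was -1.01 ± 0.16 with the block (adjusted p = 0.00206, edgeR) and -1.001 ± 0.234 without it (adjusted p = 0.0397, edgeR). Lrat is also 1 of the 9 stellate markers named above. Hsd17b13, a lipid droplet enzyme with retinol dehydrogenase activity in humans, averaged 639 CPM in tumours and 716 CPM in peritumour tissue and did not pass.

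Of 5 tested genes for uptake, 3 fell with the block: the scavenger receptor Cd36 (-0.83 ± 0.20), Stra6l, the liver receptor for retinol bound to Rbp4 (-0.50 ± 0.13), and the lipoprotein receptor Lrp1 (-0.29 ± 0.09). Their adjusted p values (edgeR) were 0.016, 0.0202 and 0.0494. Cd36 and Stra6l passed with any 1 pair left out, whereas Lrp1 passed in 4 of those 14 fits. Of 5 tested binding proteins, 1 rose: Fabp5, a fatty acid carrier that also delivers retinoic acid to Ppard, at 110 CPM in tumours and 46.7 CPM in peritumour tissue on average (0.87 ± 0.25, adjusted p = 0.0316, edgeR; 10 of 14 fits with 1 pair left out). Ttr, the plasma partner of Rbp4, averaged 2706 CPM in tumours and 3164 CPM in peritumour tissue and did not pass.

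Of 18 tested genes for the interconversion of retinol and retinaldehyde, 2 fell, the Rdh9 and Rdh16f2 described above, and 1 rose, the mitochondrial Rdh13 (0.28 ± 0.09, adjusted p = 0.0442, edgeR; 3 of 14 fits with 1 pair left out). Of 6 for retinaldehyde oxidation, 2 fell. These were Aox1, an aldehyde oxidase (-0.82 ± 0.13, adjusted p = 0.00191, edgeR), at 38.6 CPM in tumours and 65.9 CPM in peritumour tissue on average, and Aldh8a1, which in mouse oxidises 9-cis-retinaldehyde (-0.35 ± 0.11, adjusted p = 0.0429, edgeR; 4 of 14 fits with 1 pair left out). The aldehyde dehydrogenase Aldh1b1, at 697 CPM in tumours and 549 CPM in peritumour tissue, did not pass, though it was higher in 12 of 14 tumours. The 2 genes for carotenoid cleavage tested did not pass.

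Of 4 tested genes for the breakdown of retinoic acid, 1 fell: Cyp26b1, a retinoic acid hydroxylase (-1.25 ± 0.33, adjusted p = 0.022, edgeR), at 1.07 CPM in tumours and 2.66 CPM in peritumour tissue. Cyp26a1, the hydroxylase whose promoter window also matched the DR5 pattern found in that of Rarb, ranged from 0.766 to 23.4 CPM in tumours (median 2.73) and from 1.43 to 16.5 CPM in peritumour tissue (median 6.41), and was at -0.79 ± 0.35 (adjusted p = 0.15, edgeR). Of 12 receptors and partners, 2 rose slightly, Rxrb (0.33 ± 0.08, adjusted p = 0.0192, edgeR) and Rara (0.25 ± 0.08, adjusted p = 0.0469, edgeR; 3 of 14 fits with 1 pair left out), while Rarb, described above and not counted in this list, fell. Of 9 tested genes known to respond to retinoic acid, 1 fell, the homeobox gene Meis2 (-0.58 ± 0.15, adjusted p = 0.0218, edgeR).

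**Figure D5:**
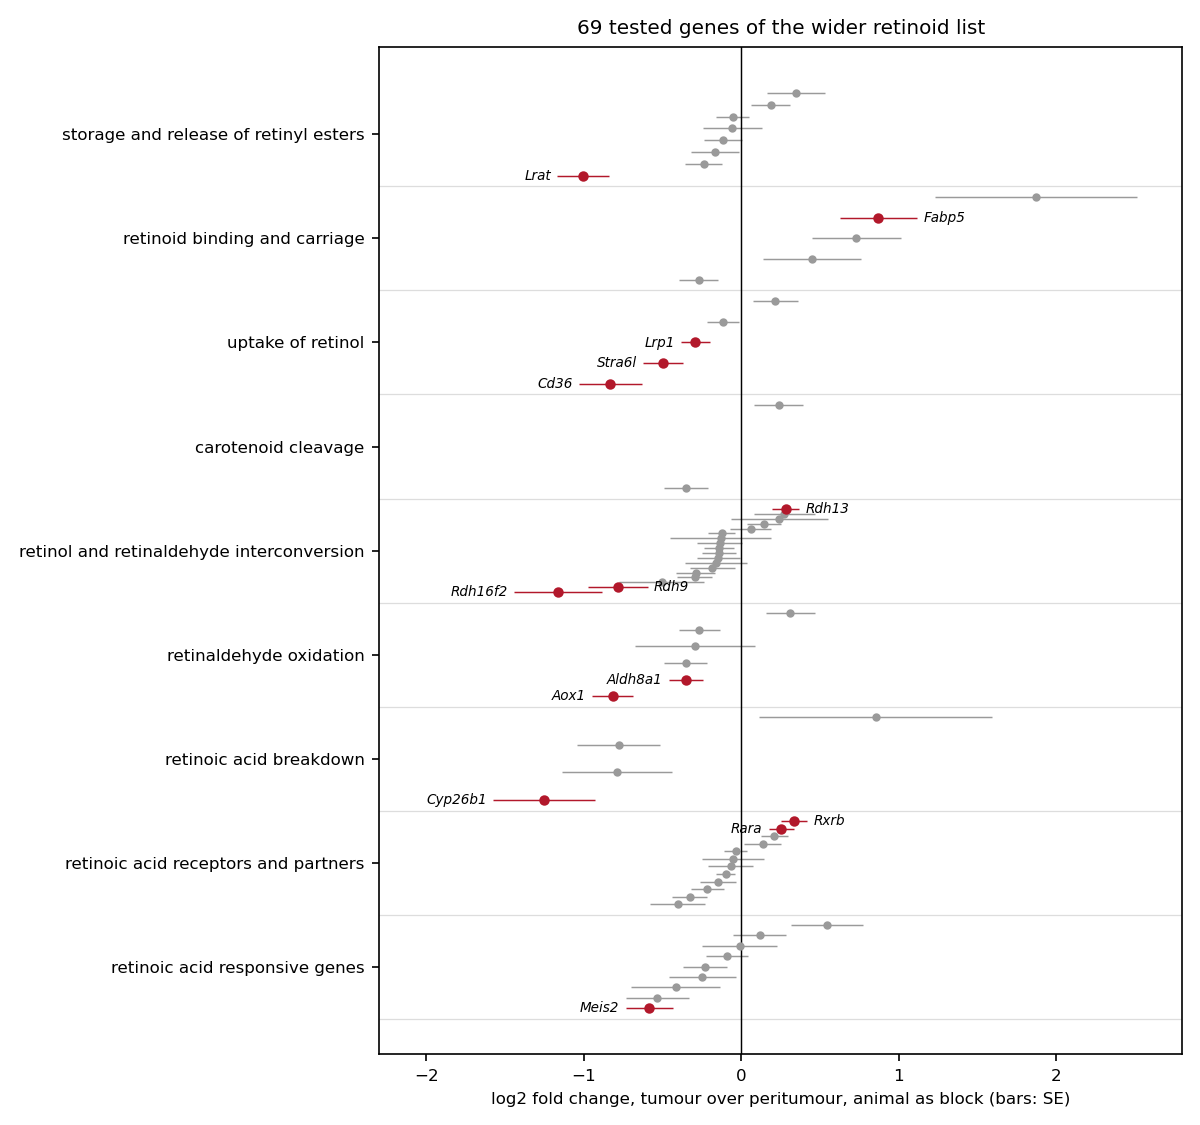
Log2 fold change of tumour over peritumour with the animal as a block, with SE bars, for the 69 tested genes of the wider retinoid list in rows by role. The 14 red, named genes passed at an adjusted p under 0.05, with Lrat at -1.01 and Fabp5 at 0.87, and the grey ones did not.

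The difference between tissues was also taken within F and within M. In F animals with the block, 2 of the 9 genes fell, Aldh1a1 (-0.94 ± 0.16, adjusted p = 0.00336, edgeR) and Rarb (-0.63 ± 0.19, adjusted p = 0.0479, edgeR), where 5.23% of genes were called lower and 4.60% higher. Without the block none did (adjusted p from 0.129 to 0.884, edgeR), where 0.0496% of genes were called lower and 0.262% higher. In the 3 M animals no gene of the whole table was called in either fit by edgeR, with 574 genes at an unadjusted p under 0.05 without the block and 1361 with it, and 2 lower and 1 higher by DESeq2. Aldh1a1 in M was at -1.06 ± 0.31 with the block (adjusted p = 0.394, edgeR). The difference between M and F in the tumour effect, tested directly, called none of the 9 genes (adjusted p at least 0.721 with the block, edgeR). Within the first code style alone, without the block, 1 of the 9, Aldh1a2, had an unadjusted p under 0.05 for that difference (adjusted p at least 0.66 for all 9, edgeR). Over all genes tested in that fit, 1021 had an unadjusted p under 0.05. For Aldh1a1 the difference with the block, both code styles included, was -0.12, with an approximate 95% interval from -0.80 to 0.57 on the log2 scale. With 3 M animals this interval was wide and held differences of either sign.

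Between M and F animals none of the 9 genes was called in tumours or in peritumour tissue, where 4 genes (0.0283%) were called higher in each comparison (edgeR). Among 11 values in F and 3 in M the intervals were wide, from -0.83 to 1.64 for Aldh1a1 in tumours. Aldh1a2 came nearest, at 0.128, 0.403 and 0.574 CPM in Tu_M and 0.132 to 49.5 CPM in Tu_F (median 0.764), with overlapping ranges. Its log2 fold change of M over F in tumours was -4.37 ± 1.35 (unadjusted p = 0.00311, adjusted p = 0.367, edgeR). DESeq2 called it lower in M (adjusted p = 0.0343), in a fit that called 53 genes lower and 11 higher. Without F replicate 2 the log2 fold change was -2.09 ± 0.96 (adjusted p = 0.999, edgeR). In peritumour tissue Aldh1a2 was at -2.12 ± 1.33 for M over F, and at -0.56 ± 0.96 without that animal, in a fit where both tissues share the code style term.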

How the data were processed

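Per the file headers, the authors deposited an estimated count and a TPM value for every gene in each library. Per the submitters' processing notes, RSEM 1.2.12, Bowtie2 2.2.5, HISAT2 2.0.4 and DESeq2 1.4.5 were used; their roles and the library's strandedness are not stated there. Coordinates come from the deposited table (GRCm38), and promoter sequences are RefSeq's (GRCm38.p6). Of the table, 18182 genes were kept, 1 line lacking a gene ID was dropped, and 9 columns of a group Li without samples among the labels were not used.

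Counts (8.06% of them not whole) were rounded and tested with edgeR 4.0.16 in R 4.3.3 (TMM, filterByExpr, robust quasi-likelihood fit, Benjamini-Hochberg over 14117 genes, threshold 0.05; SE is the log2 fold change over the root of F). The main fit held tissue, code style and letter. The code in the titles was taken as the animal: libraries of 1 animal deviated together from their group means (correlation 0.135 to 0.61, median of unpaired libraries -0.0174), so the fit with the animal as a block is given beside it. By these correlations, 10 of the 14 tumour libraries were closest to their own peritumour library. Contrasts of the 4 groups came from a fit with code style. DESeq2 1.42.0, other scalings and filters, each pair left out, and each code style alone were tried as alternatives.

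Levels are CPM with SD over libraries. Pairs were counted as higher or lower on TMM-scaled log2 CPM (prior count 2). Relations used 100000 permutations; the 90 relations with marker lists were added to the 36 among the genes. Approximate 95% intervals are normal ones from the SE. Near copies were found with blastn 2.17.0. All 9 genes are named, with the wider genes that passed in either fit, the 3 of highest mean that did not, up to 3 genes of highest likeness, and Cyp26a1, Aldh1a7 and marker genes, chosen after their values were seen. The members and lists were chosen with earlier results of these data known.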

Additional observations from a re-analysis of the deposited data

How the results depend on the processing

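Without the animal block none of the 9 genes was called lower; 1 was under DESeq2, 1 without the pair of F replicate 5 and 1 without F pairs 2, 5 and 6 (Rarb each time), and 4 with the replicate block, so leaving out 1 pair gave 0 to 1. With the block 4 were called; 7 were under DESeq2, 0 in the first code style, 1 in the second (Aldh1a1), and 3 to 6 with 1 pair left out. Within F, 0 without the block became 2 with it. In tumours of M over F, 0 became 1 under DESeq2 (Aldh1a2), a fit that called 53 genes lower and 11 higher. The cause was not tested, except that single code styles have fewer samples. Of 1353 values of single genes under all alternatives, 1212 kept their side of the threshold (44 of these, without a call in either fit, had another sign), 105 lost the call, 36 gained one and none with a call turned its sign. Scaling by library size moved the split of all genes called with the block to 1151 higher and 677 lower, against 789 and 835. No paired analysis was possible because M and F are different animals, for that comparison. Depth limits the genes of low level, Aldh1a2 and Rarb.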

Other observations

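In the tumour of F replicate 2, where Aldh1a2 stood at 49.5 CPM, several other genes lay far above every other library. These genes were picked after their values were seen. Klf5, an epithelial transcription factor, reached 32.7 CPM there, against at most 1.11 CPM in the other 27 libraries. The subunit of the GABA receptor encoded by Gabrp reached 282 CPM (at most 11.6 CPM elsewhere), the tetraspanin Tspan8 362 CPM (17.1), the cadherin Cdh6 107 CPM (4.75) and the imprinted gene Plagl1 150 CPM (6.52). The ligands Wnt7a and Wnt10a stood at 11.1 and 35.8 CPM (at most 0.436 and 1.69 elsewhere).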
